A study of Rattus norvegicus with 21 samples.

Results

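The microRNAs of rat insulinoma cells exposed to manganese were set against those of untreated cells of the same line. The small RNA table held 1186 rows, and 523 of them, those averaging 10 RPMMM or more over the 12 libraries, were tested. RPMMM is the number of reads of a row per 1000000 reads mapped to microRNAs, so that each value is a share of the microRNA reads of its library. The lowest row kept averaged 10.09 RPMMM and the highest left out 9.994 RPMMM. Of these 523 rows, 279 carried the canonical 5′ start of a microRNA and 244 carried a shifted start. A shifted form is written here as, for example, the minus 1 or plus 1 form, after the sign and number in its row name. The 523 rows held 99.79% to 99.82% of the RPMMM of each library.

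The cells were INS-1 832/13, an insulin-secreting line derived from a rat beta cell tumour. All groups were seeded in 12-well plates 24 h before a 24 h exposure. Mn cells received 25 µM manganese, Cd cells 5 µM cadmium and iAs cells 1 µM inorganic arsenic, and untreated cells received none of these. Each group had 3 small RNA libraries, made with the TriLink CleanTag kit and all run in lane 6. The labels also name liver as the tissue, which does not match the cell line. Whether libraries of 1 group were made from separate cultures is not stated, so the p-values rest on a spread between samples that may be technical.

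A microRNA is a short RNA that guides an Argonaute protein to messenger RNAs, mainly through its seed, the bases 2 to 8 from its 5′ end, and lowers their translation and stability. It is cut from a hairpin, of which usually 1 arm is kept and the other, the passenger arm, is largely degraded. Beta cells depend on microRNAs: miR-375 and miR-7 restrain insulin secretion in mice, and let-7 acts on insulin signalling in mice. Manganese is an essential cofactor of enzymes such as mitochondrial superoxide dismutase and arginase, and in excess it is toxic to neurons.

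The mature sequences below are those of the rows that changed most with manganese and of their closest relatives. They are from RefSeq (build GRCr8), written 5′ to 3′ with the seed in capitals, and a shifted form starts at another base than the sequence shown. Of the 523 rows, 485 (92.7%) matched a RefSeq mature sequence, 235 mature names in all.
For the rows that were higher in Mn cells, the canonical let-7 sequences share 1 seed and are shown with let-7a-5p. miR-7b is shown with the abundant miR-7a-5p. let-7c-5p, let-7e-5p and miR-342-5p were called only in shifted forms, whose bases 2 to 8 are not the seed shown.
miR-125b-1-3p: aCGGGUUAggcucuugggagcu
miR-346: uGUCUGCCugagugccugccucu
miR-382-5p: gAAGUUGUucgugguggauucg
miR-342-5p: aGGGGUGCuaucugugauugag
miR-7b: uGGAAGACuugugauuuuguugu
miR-7a-5p: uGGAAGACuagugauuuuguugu
let-7d-5p: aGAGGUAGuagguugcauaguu
let-7c-5p: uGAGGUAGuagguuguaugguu
let-7e-5p: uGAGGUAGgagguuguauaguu
let-7a-5p: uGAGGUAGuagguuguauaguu
Among the rows that were lower in Mn cells, miR-101a-3p and miR-101b-3p share a seed, as do miR-30a-5p and miR-30e-5p.
miR-582-3p: aACCUGUUgaacaacugaaccc
miR-101a-3p: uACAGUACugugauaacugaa
miR-101b-3p: uACAGUACugugauagcugaa
miR-148a-5p: aAAGUUCUgagacacucugacuc
miR-532-5p: cAUGCCUUgaguguaggacugu
miR-188-5p: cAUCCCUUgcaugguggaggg
miR-210-3p: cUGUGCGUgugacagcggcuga
miR-33-5p: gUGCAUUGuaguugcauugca
miR-137-3p: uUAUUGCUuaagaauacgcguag
miR-22-3p: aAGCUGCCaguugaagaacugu
miR-30a-5p: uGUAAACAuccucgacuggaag
miR-30e-5p: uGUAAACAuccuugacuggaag
Counted from 1 at the 5′ end, miR-7b differs from miR-7a-5p by A10U and miR-101b-3p from miR-101a-3p by A16G. miR-30e-5p differs from miR-30a-5p by C13U. Relative to let-7a-5p, let-7c-5p carries A19G, let-7e-5p U9G, and let-7d-5p U1A and U16C. Each of these substitutions lies outside the seed.

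The libraries had about 5900000 to 7900000 microRNA reads, as judged from the spacing of their low values. That spacing was sought within a set range, so that a depth outside it could not be found. Of the low values 58.2% to 70.3% were whole multiples of it. miR-7a-1-5p was the top row in each library at 10.1% to 11.8%. Pearson correlations over the 523 rows on the log2(RPMMM + 1) scale were 0.9974 to 0.9981 between Mn libraries and 0.9936 to 0.9978 between untreated libraries, against 0.9903 to 0.9976 between an Mn and an untreated library. The median SD of a row on that scale was 0.107 in Mn and 0.142 in untreated libraries. Untreated replicate 1 stood apart. On the first principal component, 35% of the variance, the Mn libraries lay between -1.56 and -0.388, and the untreated libraries at 6.76, 2.52 and -0.0269. On the second component, 24.8% of the variance, the Mn libraries lay between 2.44 and 3.43 and the untreated libraries between 0.398 and 1.12. GC content of the mature sequence correlated at 0.214 with the Mn minus untreated difference and at -0.368 with untreated replicate 1 minus the other untreated libraries, over 485 rows that share these libraries. The part of either in the results was not tested. Results are therefore given with and without untreated replicate 1.

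**Figure D1:**
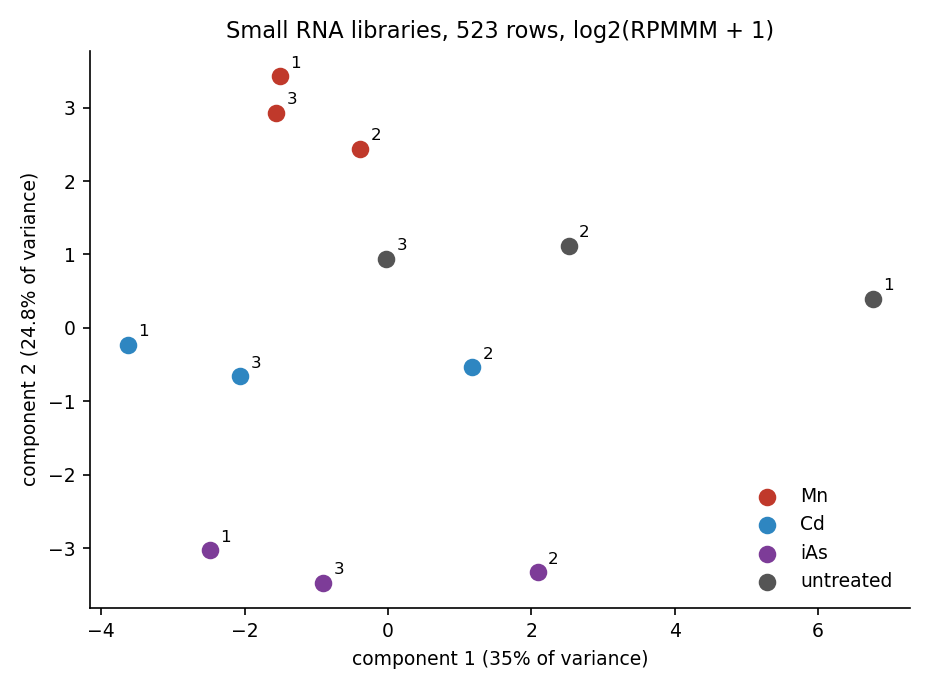
Principal components of the 12 small RNA libraries, from log2(RPMMM + 1) of 523 rows. Each point is a library with its replicate number, coloured by group. The Mn libraries lie above all others on the vertical axis, between 2.44 and 3.43, and untreated replicate 1 lies farthest right at 6.76.

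A small share of rows differed between Mn and untreated cells, by modest amounts. With limma's moderated test and Benjamini-Hochberg adjustment over all rows, 39 of 523 rows (7.46%) differed from untreated at an adjusted p under 0.05. Of these, 13 were higher in Mn cells (2.49%) and 26 were lower (4.97%). There were 148 rows at an unadjusted p under 0.05. In 38 of the 39 rows no Mn library overlapped an untreated one, and this held for 150 of all 523 rows (28.7%).

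The changes called were between 0.214 and 0.804 in size on the log2 scale, 7 of them were over 1.5-fold, and none of the 523 rows differed by over 2-fold. The 95% interval of the difference lay within 1.5-fold either way for 416 rows (79.54%) and within 2-fold for 516 (98.66%). The median difference over all rows was -0.014. At the edges of the call, the plus 1 form of miR-30e-5p passed at an adjusted p of 0.0486, and the nearest row outside had 0.0503. In a bulk library fewer cells of a kind and less RNA per cell cannot be told apart, and a change in all microRNAs at once is not seen in RPMMM.

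Without untreated replicate 1, 6 rows were called, 1 higher and 5 lower. All 39 rows kept their sign and an unadjusted p under 0.05 without it. The median of their differences was 0.827 times that with it. These rows were chosen for their difference in these same libraries, so that for those without overlap the sign could not turn. The count also depended on other libraries: leaving out Mn replicate 1, 2 or 3 gave 9, 16 or 4, and leaving out untreated replicate 2 or 3 gave 18 or 89. Leaving out Cd replicate 3 or iAs replicate 3 gave 21 or 22; these groups enter through the shared estimate of the spread.

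**Figure D2:**
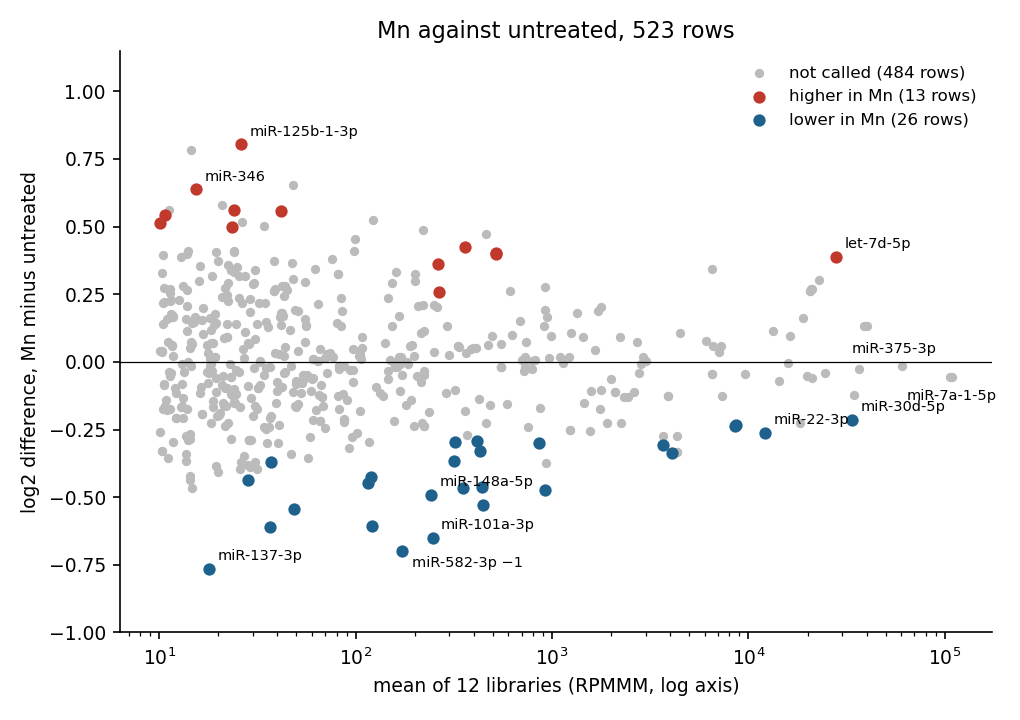
Log2 difference of Mn minus untreated cells (vertical axis) against the mean level over 12 libraries in RPMMM (horizontal log axis), 1 point for each of 523 rows. Red points are the 13 rows that were higher in Mn cells and blue points the 26 that were lower. The rows of highest level, miR-7a-1-5p and miR-375-3p, lie near 0.

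**Figure D3:**
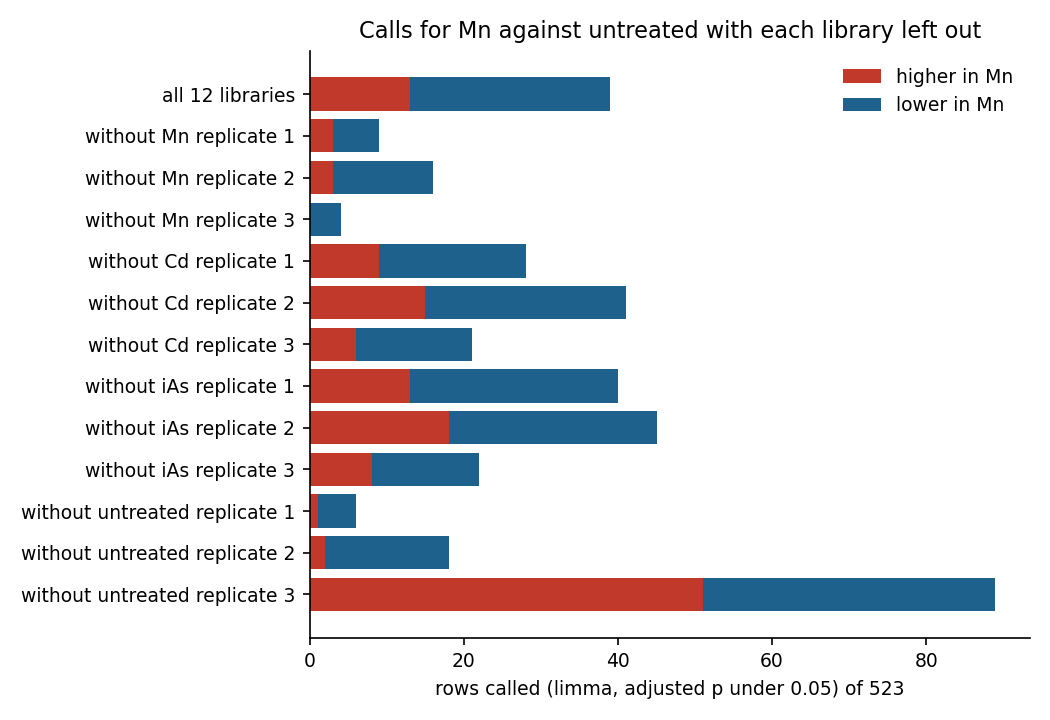
Number of rows called for Mn against untreated (limma, adjusted p under 0.05) with all 12 libraries and with each library left out in turn. Red bars count rows higher in Mn cells and blue bars rows lower. The total is 39 with all libraries, 4 without Mn replicate 3 and 89 without untreated replicate 3.

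The largest rise was in miR-125b-1-3p, the 3p arm of the miR-125b-1 hairpin on chromosome 8 (GRCr8 chr8:50850090-50850111, plus strand). It had 33.8, 40.5 and 39.8 RPMMM in Mn libraries, against 18.3, 25.6 and 20.6 RPMMM in untreated libraries. Every Mn library was above every untreated one. Its log2 difference was 0.80 (95% interval 0.48 to 1.13, limma adjusted p = 0.0106), or 1.75-fold on the RPMMM + 1 scale. The difference was 0.70 without untreated replicate 1, with an adjusted p of 0.0516. The other arm, miR-125b-1-5p, shares its mature sequence with miR-125b-2-5p, so that its reads are not specific to this hairpin. It averaged 27.3 ± 3.12 RPMMM in Mn and 25.96 ± 1.05 RPMMM in untreated libraries (SD, n = 3 each), a log2 difference of 0.06 (95% interval -0.19 to 0.32).

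miR-346, which in mammals lies within a glutamate receptor gene, rose in its canonical and its minus 1 form, 2 of the 3 forms tested. The canonical form had 21.5, 24.6 and 21.3 RPMMM in Mn libraries, against 13.3, 12.7 and 16.2 RPMMM in untreated libraries. The minus 1 form had 33.0, 31.2 and 38.3 RPMMM in Mn libraries, against 22.5, 23.7 and 22.2 RPMMM in untreated libraries. The groups did not overlap in either form. The log2 differences were 0.64 (95% interval 0.36 to 0.92, limma adjusted p = 0.0147) and 0.56 (0.28 to 0.84, adjusted p = 0.0284). Among the 13 rises called, only this canonical form, at 1.56-fold, and miR-125b-1-3p were over 1.5-fold. The minus 2 form, also tested, differed by 0.04 (-0.42 to 0.50, adjusted p = 0.932). Leaving out untreated replicate 1 gave differences of 0.61 and 0.55, with adjusted p of 0.0684 and 0.097.

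miR-7b, the less abundant relative of miR-7a, had 16.0, 14.2 and 14.8 RPMMM in Mn libraries, against 9.02, 12.5 and 8.76 RPMMM in untreated libraries. All Mn values were higher, and the log2 difference was 0.54 (95% interval 0.22 to 0.87, limma adjusted p = 0.0442). miR-7a-1-5p, the row of highest level, shares the seed of miR-7b. It averaged 109000 ± 3455 RPMMM in Mn and 113260 ± 6105 RPMMM in untreated libraries (SD, n = 3 each), with a log2 difference of -0.05 (95% interval -0.18 to 0.07, adjusted p = 0.568). miR-382-5p, from the imprinted Dlk1-Dio3 microRNA cluster, had 34.9, 28.03 and 35.3 RPMMM in Mn libraries, against 22.2, 22.6 and 23.6 RPMMM in untreated libraries. The untreated libraries were close to each other and all lower. Its log2 difference was 0.50 (95% interval 0.26 to 0.74, adjusted p = 0.0234). Both had a difference of 0.48 when untreated replicate 1 was left out, with an adjusted p of 0.181 for miR-7b and 0.097 for miR-382-5p.

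The let-7 family is known to repress growth and insulin signalling genes. It made up 4 of the 10 largest rises among the rows called, all of them shifted forms. These 4 include the plus 1 form of both let-7c precursor copies, which share a mature sequence. let-7 and miR-98 held 75 of the 523 rows tested, and 6.67% of the 75 were called, all of them higher. Of all rows 2.49% were called higher and 7.46% in either direction. let-7d-5p rose in its canonical form. let-7d-5p had 32835, 28325 and 28066 RPMMM in Mn libraries, against 19303, 23128 and 26027 RPMMM in untreated libraries. The groups did not overlap, but the highest untreated library lay near the lowest Mn libraries. Its log2 difference was 0.39 (95% interval 0.16 to 0.62, limma adjusted p = 0.0442). The plus 1 form of let-7d-5p had 417, 374 and 351 RPMMM in Mn libraries, against 245, 288 and 319 RPMMM in untreated libraries, and a log2 difference of 0.43 (0.18 to 0.67, adjusted p = 0.0441). The plus 1 form of let-7c-2-5p had 569, 546 and 556 RPMMM in Mn libraries, against 365, 438 and 469 RPMMM in untreated libraries. It differed by 0.40 (0.19 to 0.61, adjusted p = 0.0296), and the same form of let-7c-1-5p, of the same mature sequence, by 0.40. The minus 1 form of let-7e-5p had 11.1, 13.3 and 11.2 RPMMM in Mn libraries, against 6.49, 8.38 and 9.32 RPMMM in untreated libraries. It differed by 0.51 (0.21 to 0.81, adjusted p = 0.0442).

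Untreated replicate 1 was the lowest library in each of these let-7 rows. Without it the differences were 0.27 for let-7d-5p, 0.32 for its plus 1 form, 0.30 for the plus 1 form of let-7c-2-5p and 0.38 for the minus 1 form of let-7e-5p, with adjusted p between 0.113 and 0.194. Summed over the 75 rows of let-7 and miR-98, the level was 311056, 297692 and 303655 RPMMM in Mn libraries, against 246750, 270710 and 283236 RPMMM in untreated libraries. All 3 Mn sums were above the untreated ones. The sum was 314105, 298100 and 314404 RPMMM in Cd libraries and 305769, 274862 and 303951 RPMMM in iAs libraries, so that it was not high in Mn alone. Of the 75 rows, 5 rose (6.67%) and none fell, beside 2.49% of all rows called higher and 4.97% called lower. Their median difference was 0.178, beside -0.014 over all 523 rows. Leaving out untreated replicate 1 gave a median of 0.117 and no call in the list, beside 6 calls over all rows.

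Among the 9 mature sequences with the let-7 seed GAGGUAG, 8 had a positive difference in their canonical form, and their median was 0.264. let-7d-5p alone was called, and it was not called without untreated replicate 1 (0.27, limma adjusted p = 0.185). let-7b-5p differed by 0.30 (95% interval 0.04 to 0.56, limma adjusted p = 0.129), let-7a-1-5p by 0.26 (0.10 to 0.43, adjusted p = 0.0584) and let-7f-2-5p, 1 of the 10 most abundant rows, by 0.13 (0.03 to 0.24, adjusted p = 0.0999). let-7i-5p, also among the 10 most abundant, had the only negative value, -0.03 (-0.13 to 0.07, adjusted p = 0.735). It averaged 36961 ± 489 RPMMM in Mn and 37677 ± 407 RPMMM in untreated libraries (SD, n = 3 each). On the log2 scale untreated replicate 1 minus the mean of the other untreated libraries was -0.348 for let-7b-5p, -0.265 for let-7a-1-5p and -0.0559 for let-7f-2-5p. For let-7i-5p it was 0.0258. The median of the 9 sequences without untreated replicate 1 was not computed.

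The remaining row of the 10 largest rises called was the plus 1 form of miR-342-5p, whose gene in mammals lies within an intron of Evl. It had 50.8, 49.6 and 52.8 RPMMM in Mn libraries, against 27.8, 34.3 and 42.4 RPMMM in untreated libraries. The Mn libraries lay close together and the untreated ones did not. The log2 difference was 0.56 (95% interval 0.27 to 0.85, limma adjusted p = 0.0296). It was 0.41 without untreated replicate 1, at an adjusted p of 0.113. The canonical form of miR-342-5p differed by 0.53 (0.17 to 0.88) at an adjusted p of 0.0709.

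**Figure D4:**
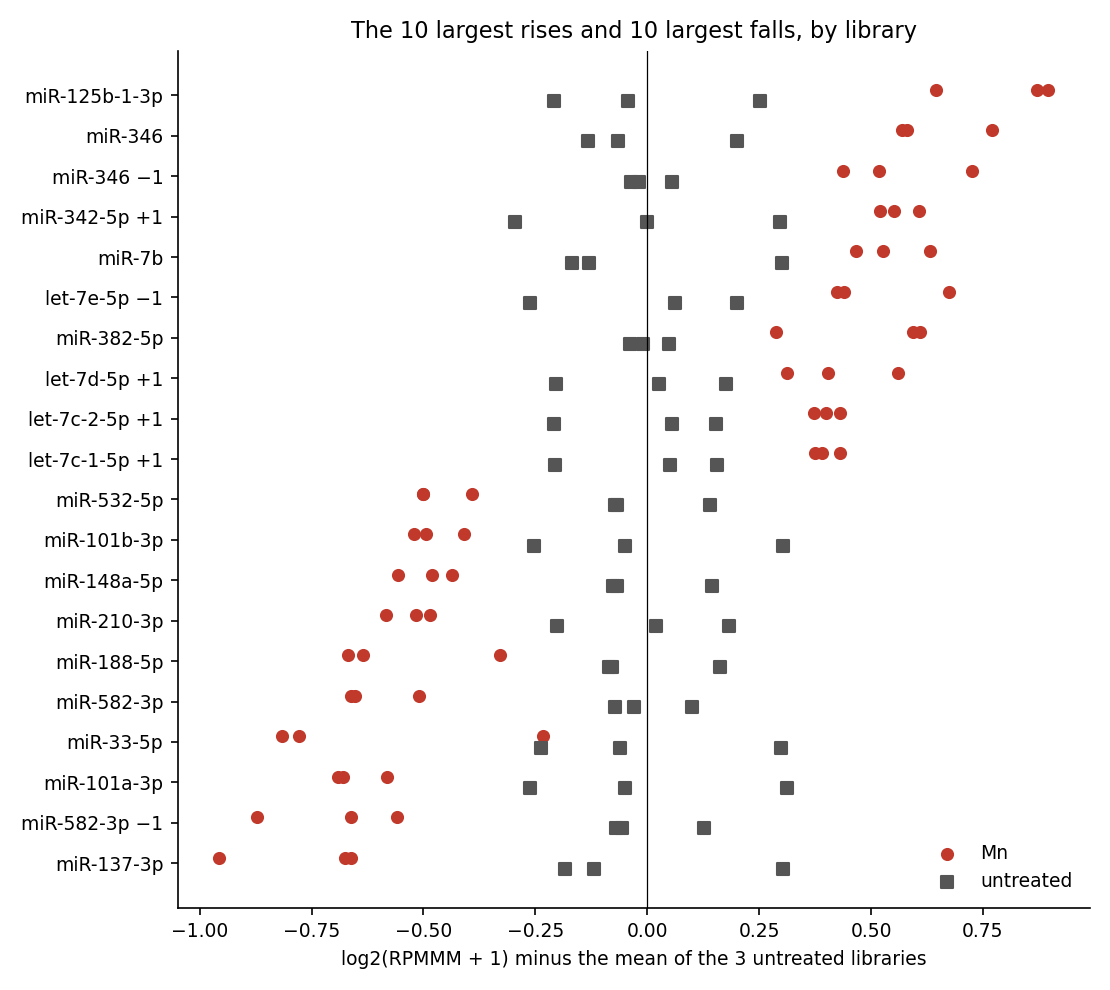
Values in each Mn (red circles) and untreated (grey squares) library for the 10 largest rises and 10 largest falls among the 39 rows called. The horizontal axis is log2(RPMMM + 1) minus the mean of the 3 untreated libraries. Mn and untreated libraries are separate in every row but miR-33-5p, where Mn replicate 2 has 37.7 RPMMM and untreated replicate 2 has 37.5 RPMMM.

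Among the falls, miR-582-3p was lowest in p. Its gene lies within Pde4d, a cAMP phosphodiesterase gene, in human, and on chromosome 2 in the rat (GRCr8 chr2:42662001-42662022, plus strand). The minus 1 form had 116, 134 and 144 RPMMM in Mn libraries, against 232, 204 and 203 RPMMM in untreated libraries. The canonical form had 96.6, 97.2 and 107 RPMMM in Mn libraries, against 164, 146 and 150 RPMMM in untreated libraries. The Mn libraries were all lower in both forms. The log2 differences were -0.70 (95% interval -0.90 to -0.50, limma adjusted p = 0.00226) and -0.61 (-0.84 to -0.38, adjusted p = 0.00915). Both calls held without untreated replicate 1, at -0.63 (adjusted p = 0.0108) and -0.56 (adjusted p = 0.0323). The other arm, miR-582-5p, averaged 39.6 RPMMM in Mn and 42.5 RPMMM in untreated libraries and differed by -0.09 (-0.35 to 0.17, adjusted p = 0.655).

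miR-101a-3p and miR-101b-3p, which target the histone methyltransferase gene Ezh2 in human cells, both fell. miR-101a-3p had 189, 205 and 191 RPMMM in Mn libraries, against 381, 296 and 256 RPMMM in untreated libraries. miR-101b-3p had 788, 852 and 803 RPMMM in Mn libraries, against 1396, 1093 and 950 RPMMM in untreated libraries. In both, untreated replicate 1 was the highest library and the groups did not overlap. The log2 differences were -0.65 (95% interval -0.91 to -0.39, limma adjusted p = 0.0106) for miR-101a-3p and -0.47 (-0.73 to -0.21, adjusted p = 0.0363) for miR-101b-3p. Without untreated replicate 1, miR-101a-3p stayed called at -0.49 (adjusted p = 0.0293), and miR-101b-3p had -0.32 (adjusted p = 0.113).

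miR-148a-5p is the passenger arm of miR-148a, whose main arm sustains insulin content in mouse beta cells. It had 174, 189 and 183 RPMMM in Mn libraries, against 283, 244 and 243 RPMMM in untreated libraries. The groups were well apart, and its log2 difference was -0.49 (95% interval -0.68 to -0.31, limma adjusted p = 0.00915), or -0.42 without untreated replicate 1 (adjusted p = 0.0293). The main arm, miR-148a-3p, had 16473, 17090 and 16386 RPMMM in Mn libraries, against 21347, 19104 and 18081 RPMMM in untreated libraries. It did not overlap either, and differed by -0.23 (-0.38 to -0.07) with an adjusted p of 0.0784.

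miR-188-5p and miR-532-5p come from a microRNA cluster on the X chromosome and start 400 bases apart in GRCr8. miR-532-5p (chrX:17919195-17919216, plus strand) had 290, 290 and 313 RPMMM in Mn libraries, against 453, 391 and 392.3 RPMMM in untreated libraries. miR-188-5p had 35.2, 44.8 and 36.1 RPMMM in Mn libraries, against 63.5, 53.5 and 53.2 RPMMM in untreated libraries. Both fell in every Mn library relative to every untreated one. The log2 differences were -0.46 (95% interval -0.62 to -0.31, limma adjusted p = 0.00687) for miR-532-5p and -0.54 (-0.77 to -0.31, adjusted p = 0.0127) for miR-188-5p. Without untreated replicate 1 they were -0.39 (adjusted p = 0.0205) and -0.46 (adjusted p = 0.0674). A further member of that cluster, miR-362-3p, differed by -0.41 (-0.78 to -0.04, adjusted p = 0.147), and the other arm miR-532-3p by 0.03 (-0.31 to 0.37, adjusted p = 0.929).

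miR-210-3p is the microRNA best known for its induction in hypoxia. It had 412, 385 and 403 RPMMM in Mn libraries, against 654, 585 and 501 RPMMM in untreated libraries. It fell, with a log2 difference of -0.53 (95% interval -0.81 to -0.25, limma adjusted p = 0.0296). It was -0.44 without untreated replicate 1, at an adjusted p of 0.116. miR-33-5p, which lies within Srebf2 in mammals and represses the cholesterol exporter gene Abca1, had 24.8, 37.7 and 25.5 RPMMM in Mn libraries, against 54.9, 37.5 and 42.5 RPMMM in untreated libraries. It was the 1 row called whose groups overlapped. Its log2 difference was -0.61 (-0.97 to -0.24, adjusted p = 0.0442). It was -0.46 without untreated replicate 1, at an adjusted p of 0.197. miR-137-3p, a regulator of neuronal development, had 13.9, 14.01 and 11.3 RPMMM in Mn libraries, against 28.3, 20.9 and 19.9 RPMMM in untreated libraries. It had the largest fall of all rows called, -0.76 (-1.20 to -0.33, adjusted p = 0.0391), with -0.61 without untreated replicate 1 (adjusted p = 0.162).

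Several abundant rows fell by less. miR-30d-5p, which raises insulin expression in mouse beta cells, had 31364, 33096 and 31101 RPMMM in Mn libraries, against 38889, 35599 and 36392 RPMMM in untreated libraries. Its log2 difference of -0.21 (95% interval -0.32 to -0.11, limma adjusted p = 0.0288) was the smallest in size among the rows called. miR-30a-5p and miR-30e-5p fell by 0.31 and 0.34 on the log2 scale (adjusted p = 0.042 and 0.037), while miR-30c-1-5p differed by -0.11 (-0.26 to 0.04, adjusted p = 0.316). miR-22-3p had 9704, 10645 and 9872 RPMMM in Mn libraries, against 13311, 11299 and 11697 RPMMM in untreated libraries. It differed by -0.26 (-0.40 to -0.13, adjusted p = 0.0296). miR-103-1-3p, of a family that acts on insulin sensitivity in mice, averaged 8053 ± 142 RPMMM in Mn and 9488 ± 297 RPMMM in untreated libraries (SD, n = 3 each), and differed by -0.24 (-0.35 to -0.13, adjusted p = 0.0213). Its relative miR-107-3p, with the same seed, differed by -0.23 (-0.38 to -0.08, adjusted p = 0.0632).

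miR-204-5p, which represses the insulin gene activator Mafa in rat INS-1 cells, had 343, 388 and 364 RPMMM in Mn libraries, against 476, 427 and 439 RPMMM in untreated libraries. All Mn libraries were lower, with a log2 difference of -0.29 (95% interval -0.45 to -0.14, limma adjusted p = 0.0296). Without untreated replicate 1 no call of the miR-30, miR-22, miR-103 and miR-204 rows was kept. The differences were then -0.18 for miR-30d-5p (adjusted p = 0.113), -0.24 for both miR-30a-5p and miR-30e-5p (adjusted p = 0.162 and 0.13), -0.19 for miR-22-3p (adjusted p = 0.113), -0.21 for miR-103-1-3p (adjusted p = 0.0904) and -0.25 for miR-204-5p (adjusted p = 0.113).

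The Mn libraries were also set against the iAs and Cd libraries, whose doses differ from that of Mn. Against iAs 89 rows (17%) were called, 51 higher (9.75%) and 38 lower (7.27%) in Mn cells. Against Cd 39 rows (7.46%) were called, 20 higher (3.82%) and 19 lower (3.63%). Of the 39 rows called against untreated cells, 11 were called in the same direction against both other metals. These 3 comparisons share the Mn libraries, so that they are not independent of each other. Higher in Mn cells were miR-125b-1-3p, both forms of miR-346, miR-7b, miR-382-5p, miR-344b-1-3p and miR-27b-5p. Lower were miR-148a-5p, miR-22-3p, and miR-140-3p with its plus 1 form. miR-344b-1-3p, miR-27b-5p and the miR-140-3p forms were chosen after their values were seen.

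For miR-125b-1-3p, the Cd libraries had 24.8, 18.5 and 18.4 RPMMM and the iAs libraries 27.7, 21.6 and 23.7 RPMMM, all under the lowest Mn library at 33.8 RPMMM. The Mn minus Cd difference was 0.86 (SE 0.15, limma adjusted p = 0.00633) and the Mn minus iAs difference 0.63 (SE 0.15, adjusted p = 0.0118). miR-346 had 14.01, 14.97 and 12.9 RPMMM in Cd and 10.3, 12.9 and 10.01 RPMMM in iAs libraries. It differed by 0.65 between Mn and Cd (SE 0.13, adjusted p = 0.0137) and by 0.96 between Mn and iAs (SE 0.13, adjusted p = 0.00027). miR-7b differed by 0.57 between Mn and Cd (adjusted p = 0.0341) and by 0.83 between Mn and iAs (adjusted p = 0.0023). In these rows the Mn libraries stood above all 9 others.

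miR-344b-1-3p had 305, 348 and 324 RPMMM in Mn libraries and between 217 and 247 RPMMM in the Cd and iAs libraries, against 267, 243 and 250 RPMMM in untreated libraries. Its log2 difference from untreated was 0.36 (95% interval 0.20 to 0.52, limma adjusted p = 0.015), and it was the 1 rise still called without untreated replicate 1 (0.40, adjusted p = 0.0293). miR-27b-5p, the passenger arm of miR-27b, had 328, 328 and 326 RPMMM in Mn libraries, against 256, 273 and 293 RPMMM in untreated libraries. It differed by 0.26 from untreated (0.11 to 0.40, adjusted p = 0.0376), by 0.29 from Cd (adjusted p = 0.0187) and by 0.72 from iAs (adjusted p = 3.1e-05). Its difference from untreated was 0.21 without untreated replicate 1, and not called (adjusted p = 0.137). miR-382-5p likewise differed most from iAs, whose libraries had 17.0, 14.4 and 14.5 RPMMM: by 1.05 (SE 0.11, adjusted p = 7.7e-05), against 0.45 from Cd (adjusted p = 0.0276).

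For the falls, miR-148a-5p had 234, 261 and 280 RPMMM in Cd and 276, 257 and 287 RPMMM in iAs libraries, near the untreated level and above every Mn library. It differed by -0.50 between Mn and Cd (SE 0.09, limma adjusted p = 0.00633) and by -0.58 between Mn and iAs (SE 0.09, adjusted p = 0.000446). miR-22-3p differed by -0.32 between Mn and Cd (adjusted p = 0.0133) and by -0.47 between Mn and iAs (adjusted p = 0.00027). miR-140-3p, which lies within Wwp2 in mammals, had 325, 345 and 377 RPMMM in Mn libraries, against 497, 430 and 391.5 RPMMM in untreated libraries. It differed by -0.33 from untreated (adjusted p = 0.0391), by -0.38 from Cd (adjusted p = 0.0187) and by -0.45 from iAs (adjusted p = 0.00307). Its difference from untreated was -0.24 without untreated replicate 1, and that of its plus 1 form -0.25, neither called (adjusted p = 0.144 and 0.162).

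**Figure D5:**
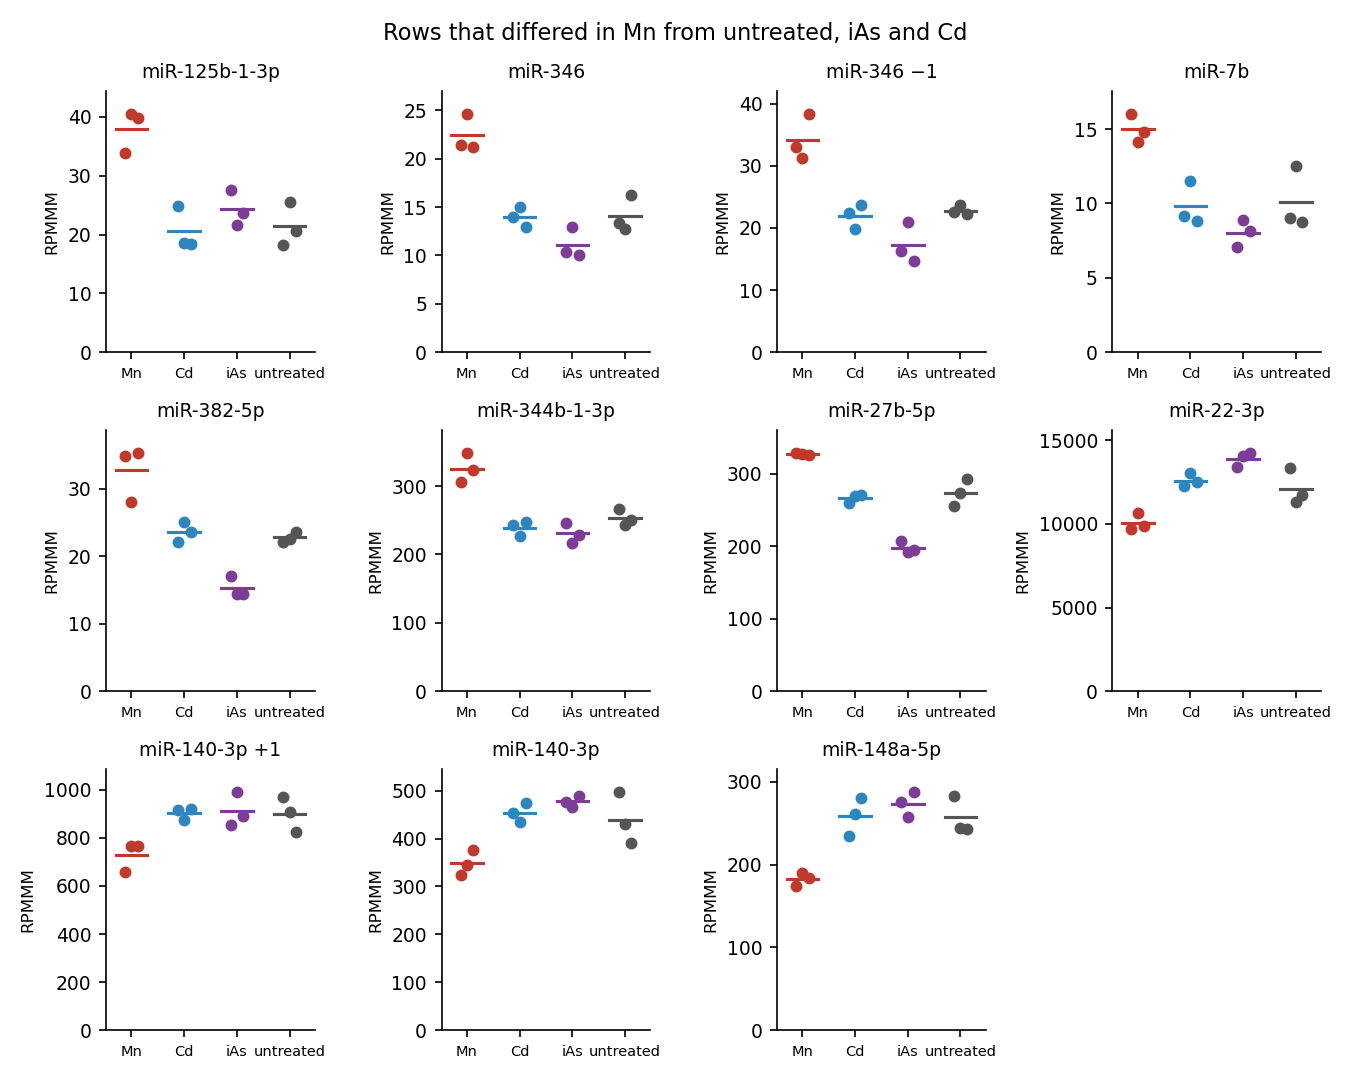
Level in RPMMM (vertical axes from 0) of the 11 rows called in the same direction in Mn against untreated, iAs and Cd cells. Each point is a library and each bar the mean of 3. The Mn libraries lie at the top of the first 7 panels and at the bottom of the other 4, where in miR-140-3p the highest Mn library has 377 RPMMM and the lowest untreated one 391.5 RPMMM.

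Other rows called against untreated cells had close values in another metal. These comparisons share the untreated libraries, and their values are given side by side without a test of likeness. let-7d-5p differed from untreated by 0.39 in Mn, 0.43 in Cd and 0.35 in iAs cells, and its Mn minus Cd difference was -0.04 (SE 0.11, limma adjusted p = 0.906). miR-101a-3p differed by -0.65 in Mn, -0.56 in Cd and -0.17 in iAs cells, with a Mn minus Cd difference of -0.09 (SE 0.12, adjusted p = 0.821). miR-103-1-3p, miR-30a-5p, miR-30d-5p and miR-30e-5p also differed by at most 0.03 in size between Mn and Cd. miR-210-3p differed by -0.53 in Mn, -0.37 in Cd and -0.74 in iAs cells. miR-582-3p differed by -0.61 in Mn, -0.27 in Cd and -0.58 in iAs cells.

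The opposite arm of the hairpin was measured for 14 of the 26 canonical rows called, and none of these 14 was called, beside 9.32% of all canonical rows. miR-22-5p differed by -0.05 (95% interval -0.29 to 0.19, limma adjusted p = 0.81), and miR-27b-3p, the abundant arm, by -0.05 (-0.16 to 0.06, adjusted p = 0.56). miR-210-5p differed by -0.05 (-0.31 to 0.21, adjusted p = 0.81), and let-7d-3p by 0.17 (-0.24 to 0.57, adjusted p = 0.6). miR-30a-3p, miR-30d-3p and miR-30e-3p had positive differences of 0.13, 0.05 and 0.06 beside the falls of their 5p arms. miR-140-5p, at -0.23 (-0.51 to 0.06, adjusted p = 0.29), and miR-148a-3p, at -0.23 (-0.38 to -0.07, adjusted p = 0.0784), had the sign of their partners. So did let-7d-3p, miR-22-5p, miR-210-5p, miR-125b-1-5p, miR-339-3p and miR-582-5p. The sign was opposite for miR-27b-3p, miR-204-3p, miR-532-3p and the miR-30 arms. A difference between the arms was not tested.

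Rows within 10 kb of a called row in GRCr8 did not all move with it. miR-23b-5p lies 240 bases from miR-27b-5p and differed by 0.54 (95% interval 0.16 to 0.93, limma adjusted p = 0.0784). The abundant members of the same cluster, miR-23b-3p and miR-24-1-3p, differed by 0.02 and -0.05. Near miR-382-5p, miR-369-3p differed by -0.15, miR-410-3p by -0.01 and miR-541-5p by -0.01.

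Most beta cell microRNAs that were looked at singly were not called. miR-375-3p, which restrains insulin secretion, had 57366, 61969 and 61140 RPMMM in Mn libraries, against 58128, 60296 and 63986 RPMMM in untreated libraries, and differed by -0.02 (95% interval -0.15 to 0.12, limma adjusted p = 0.902). miR-182 differed by -0.12 (-0.23 to -0.01, adjusted p = 0.145) and miR-26a-5p by -0.04 (-0.14 to 0.06, adjusted p = 0.623). miR-183-5p differed by 0.06 (-0.07 to 0.19), miR-9a-1-5p by -0.02 (-0.17 to 0.14), miR-153-3p by -0.18 (-0.43 to 0.07) and miR-29a-3p by -0.23 (-0.44 to -0.01, adjusted p = 0.158). miR-184, which represses the Argonaute gene Ago2 in mouse beta cells, averaged 49.6 ± 3.4 RPMMM in Mn and 40.0 ± 5.6 RPMMM in untreated libraries (SD, n = 3 each), with an adjusted p of 0.0875.

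Several stress-responsive microRNAs differed between metals. miR-146a-5p, which is induced by inflammatory signals, had 12.4, 12.7 and 14.8 RPMMM in Mn libraries and 29.3, 29.98 and 27.5 RPMMM in iAs libraries, against 16.8, 13.3 and 15.01 RPMMM in untreated libraries. The Mn and untreated libraries overlapped (log2 difference -0.17, 95% interval -0.42 to 0.09, limma adjusted p = 0.38), and Mn was lower than iAs by a difference of -1.07 (SE 0.12, adjusted p = 7.7e-05). miR-708-5p, linked to endoplasmic reticulum stress, differed by 0.03 from untreated (-0.16 to 0.22, adjusted p = 0.885) and by 0.76 from iAs (SE 0.09, adjusted p = 0.000131). miR-212-3p, a target of the CREB pathway that promotes insulin secretion, differed by -0.11 from untreated (-0.30 to 0.08, adjusted p = 0.451) and by -0.62 from Cd (SE 0.09, adjusted p = 0.00225). Its cluster partner miR-132-3p differed by -0.10 from untreated (-0.31 to 0.11) and by -0.41 from Cd (SE 0.10, adjusted p = 0.0218). miR-21-5p differed by -0.27 from untreated (-0.52 to -0.02, adjusted p = 0.149) and miR-34a-5p by 0.06 (-0.24 to 0.36, adjusted p = 0.81).

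Lists of related microRNAs were described by counts of rows, beside 13 rises and 26 falls among 523 rows. Of 89 rows of beta cell microRNAs, 1 rose (miR-7b) and 3 fell (miR-30d-5p, miR-148a-5p and miR-204-5p), with a median difference of -0.103. The 10 rows of the miR-200 family, known to keep cells epithelial, held no call and had a median of 0.0353, with the smallest p in the minus 1 form of miR-200c-3p (0.19, limma adjusted p = 0.0913). The 10 rows of the cluster of miR-183, miR-96 and miR-182 and the 30 rows of the miR-17/92 and related clusters held no call either, with medians of 0.0825 and -0.0656. Among the miR-17/92 rows the minus 1 form of miR-17-2-3p had the smallest p (-0.35, adjusted p = 0.0891). Of 5 rows from the Dlk1-Dio3 region, miR-382-5p rose, and the median was -0.00866. Of 65 rows of stress, hypoxia and p53 microRNAs, 1 rose and 2 fell, with a median of -0.0838. Of 28 rows linked to manganese or alpha-synuclein, a neuronal protein repressed by miR-7 and miR-153, 2 rose (miR-125b-1-3p and miR-7b), with a median of -0.0675. Leaving out untreated replicate 1 left 1 fall and no rise among the beta cell rows, with a median of -0.0577, and no call in the miR-200, miR-183, miR-17/92, Dlk1-Dio3, stress or manganese lists. The medians were then -0.0375 for the stress list, -0.0374 for the manganese list, 0.0744 for miR-200, 0.0513 for the miR-183 cluster, -0.0263 for miR-17/92 and -0.0178 for Dlk1-Dio3, beside -8.38e-05 over all rows.

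Some markers of other cell types were listed at 0 or were low. Others, miR-194 above all, were well above the filter and were not called. No row was matched to miR-223, miR-150, miR-451, miR-144, miR-155 and miR-486 of blood cells, miR-206 and miR-208 of muscle, or miR-145 and miR-214 of stroma, and miR-143 of stroma was listed at 0 in all Mn and untreated libraries. miR-142 of blood cells was between 0 and 2.33 RPMMM in Mn libraries, against 2.75 to 4.12 RPMMM in untreated libraries. miR-122, the defining microRNA of liver, was between 7.21 and 9.53 RPMMM in Mn libraries, against 4.9 to 6.79 RPMMM in untreated libraries, under the filter of 10 RPMMM. The part of miR-122 and miR-142 in the other results was not tested. miR-375-3p, high in beta cells, was at least 57366 RPMMM in all of them. The 4 liver rows tested, all of miR-194, summed to 2970 to 3387 RPMMM in Mn and 3218 to 3885 RPMMM in untreated libraries. They had no call (miR-194-1-5p -0.17, limma adjusted p = 0.308). The 2 muscle rows, at 84.63 to 95.29 RPMMM in Mn and 75.1 to 104.3 RPMMM in untreated libraries, had none (miR-499-5p 0.01, adjusted p = 0.95). Nor did the 3 rows of stroma and endothelium, all of miR-126a (plus 1 form of miR-126a-3p -0.16, adjusted p = 0.31). These summed to 177.6 to 188.8 RPMMM in Mn and 177.6 to 197.6 RPMMM in untreated libraries. No row of the 7 blood and immune microRNAs reached the filter.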

How the data were processed

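Small RNA libraries (3 each of Mn, Cd, iAs and untreated cells) were compared. The authors deposited RPMMM, an RPM value scaled so that each library sums to 1000000 reads mapped to microRNAs, from miRquant, per the labels. The submitters' processing notes name DESeq2, STAR, Salmon and rn6, without versions or roles. Whole reads could not be recovered (58.2% to 70.3% of low values were whole multiples of the value of 1 read), so no count test was run. The mRNA table was not used.

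The 523 rows averaging 10 RPMMM or more were tested with limma 3.58.1 (limma-trend, R 4.3.3) on log2(RPMMM + 1), with 12 libraries in 4 groups sharing 1 estimate of the spread. Adjustment was by Benjamini-Hochberg over all rows, at a threshold of 0.05. Differences on this scale are damped at low levels. Precursor copies share reads: 36 rows hold the values of another row.

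Rows named are the 10 largest rises and falls among those called, the 10 of highest mean, a set of 26 beta cell and stress entries (6 matched no tested row), and the smallest p of each list. The members and lists were chosen with earlier results of these data known. Alternatives changed the pseudocount, filter, scaling, prior, rows, replicate block and libraries.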

Additional observations from a re-analysis of the deposited data

How the results depend on the processing

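All 39 rows kept their direction in every alternative that gave them a value. They were chosen for their difference in these same libraries, so this is not separate support for the direction. Against the 39 calls, the count was 40 with pseudocount 0.1, 39 with 5, 40 with median-of-ratios rescaling, 40 with a robust prior, 27 with the Mn and untreated libraries alone, 40 with identical rows counted once, 27 with the 279 canonical rows alone and 42 with a filter of 100 RPMMM. It was 18 with no filter on low values, 24 with quantile normalization and 16 without a trend, and 4 to 89 with 1 library left out. The count of 11 rows called against untreated, iAs and Cd was 6, 7 and 6 under these 3 settings, 7 with a filter of 100 RPMMM, and 1 to 12 with 1 library left out. Except for the filters, which change the rows tested, the cause was not tested. The calls of miR-582-3p and its minus 1 form, miR-148a-5p and miR-532-5p held in every alternative that gave them a value. Same-numbered Mn and untreated libraries were not paired by their deviations, which correlated at -0.011, -0.19 and 0.14. Those of Cd and iAs libraries correlated at 0.37, 0.46 and 0.18, each over 0.1, and the labels give no pairing. For Cd and untreated libraries the values were -0.62, -0.16 and 0.18, and for iAs and untreated libraries -0.55, -0.14 and 0.13. Whether the replicate numbers pair libraries was not tested. With the replicate number as a block the count was 23 (6 against all 3 groups), and 46 with the Mn and untreated libraries alone. miR-132-3p, not called, turned to 0.0198 with quantile normalization. With 1 library left out, uncalled rows crossed 0: miR-375-3p (-0.047 to 0.0223), miR-132-3p (-0.18 to 0.0102), miR-9a-1-5p and miR-9a-2-5p (-0.0704 to 0.0592), miR-9a-3-5p (-0.0706 to 0.059), miR-34a-5p (-0.054 to 0.153), miR-708-5p (-0.0622 to 0.0913) and miR-499-5p (-0.125 to 0.148).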

Other observations

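Rows in this paragraph were chosen after their values were seen. miR-339-5p had 254, 281 and 237 RPMMM in Mn libraries and 422, 343 and 353 RPMMM in Cd libraries, against 334, 313 and 348 RPMMM in untreated libraries. On the log2 scale it fell by 0.37 relative to untreated (limma adjusted p = 0.0442) and was lower than in Cd cells by a log2 difference of -0.53 (SE 0.10, adjusted p = 0.0105). miR-1843a-5p had 20.3, 23.9 and 25.4 RPMMM in Mn libraries, against 32.3, 29.5 and 33.0 RPMMM in untreated libraries. It differed by -0.43 from untreated (adjusted p = 0.0296) and by -0.48 from iAs (SE 0.10, adjusted p = 0.00676). Neither was called without untreated replicate 1, at -0.36 for miR-339-5p (adjusted p = 0.125) and -0.42 for miR-1843a-5p (adjusted p = 0.113). The plus 2 form of miR-103-1-3p fell more in size than the canonical form, at -0.45 (adjusted p = 0.0112, and 0.0516 without untreated replicate 1) beside -0.24, a difference between forms that was not tested. Of the canonical rows 26 of 279 (9.32%) were called, and of the shifted forms 13 of 244 (5.33%), beside 7.46% of all rows.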
